A study of Homo sapiens with 4 samples.

Results

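The kallikrein gene cluster of human chromosome band 19q13 was examined for DNA methylation in C4-2B cells, written C42B in the labels, an established prostate cancer line derived from LNCaP. Its members were the regions enriched for 5-methylcytosine that overlapped 51.315 to 51.59 Mb of chromosome 19 in the build hg19. They numbered 45 of 261657 regions in cells carrying the control guide RNA sgC (labelled WT) and 41 of 296521 in cells carrying sgPKCl/i (labelled PKCl/i KO), a guide against the atypical protein kinase C that PRKCI encodes. In both genotypes sheared, adapter-ligated DNA was immunoprecipitated with the 5-methylcytosine antibody 33D3 and sequenced (MeDIP-seq) beside an input library. Cells were untreated and harvested 48 h after plating, at about 70% confluency. The 4 libraries made 4 groups of 1 library each, so no difference between genotypes has a replicate check and no p-value is given. Whether the edited cells were 1 clone or a pool is not given in the sources used here, and peak lists cannot show the edit itself.

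Kallikreins are secreted serine proteases, encoded side by side as the largest uninterrupted run of protease genes in the human genome. KLK3, whose product is prostate-specific antigen, and KLK2, which can activate the KLK3 proenzyme, are driven by the androgen receptor in luminal prostate cells, and PSA in blood is the marker used to follow prostate cancer. KLK4 and KLK15 are also made in prostate, and KLK1, tissue kallikrein, releases kinins. Further along lie KLK5 and KLK7, which shed the outer layer of skin, KLK6 and KLK8, both studied in the nervous system, and KLK10, an epithelial kallikrein. Methylation is laid down mostly at cytosines followed by guanine (CpG), and MeDIP enriches fragments that hold several methylated CpGs.

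The gene table of RefSeq (GRCh38.p14) placed the 16 family genes in the order KLK1, KLK15, KLK3, KLK2, the pseudogene KLKP1, KLK4, KLK5, KLK6, KLK7, KLK8, KLK9, KLK10, KLK11, KLK12, KLK13 and KLK14. Only this order was taken from it, because the peak lists use hg19. Peaks were therefore assigned to 3 intervals known in hg19. These were the prostate-expressed end from KLK1 to KLK4 (51.32 to 51.42 Mb, 100 kb), the end from KLK5 onward (51.44 to 51.59 Mb, 150 kb) and KLK3 itself (51.358 to 51.364 Mb). No peak could be given to any other single gene.

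The promoters differed along the cluster in how many CpGs they offer to the antibody. RefSeq sequences from 250 bases before to 50 after the start were found for 13 of the 16 family genes, and for 8 of the 10 members. KLK1 and KLK8 were the members without one. The 250 bases before the start are printed 5′ to 3′ for KLK3 and KLK2, the main androgen-driven genes, and for KLK6, a gene from the other end, with each CpG in capitals.
KLK3: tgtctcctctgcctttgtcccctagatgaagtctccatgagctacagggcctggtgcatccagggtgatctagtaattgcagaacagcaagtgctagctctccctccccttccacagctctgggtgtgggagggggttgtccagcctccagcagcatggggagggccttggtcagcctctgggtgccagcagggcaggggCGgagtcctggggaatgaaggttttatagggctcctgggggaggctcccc
KLK2: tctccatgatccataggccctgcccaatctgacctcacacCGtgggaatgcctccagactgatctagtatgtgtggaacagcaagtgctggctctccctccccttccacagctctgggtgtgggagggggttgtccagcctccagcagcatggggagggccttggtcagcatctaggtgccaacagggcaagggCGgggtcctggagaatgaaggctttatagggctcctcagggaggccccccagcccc
KLK6: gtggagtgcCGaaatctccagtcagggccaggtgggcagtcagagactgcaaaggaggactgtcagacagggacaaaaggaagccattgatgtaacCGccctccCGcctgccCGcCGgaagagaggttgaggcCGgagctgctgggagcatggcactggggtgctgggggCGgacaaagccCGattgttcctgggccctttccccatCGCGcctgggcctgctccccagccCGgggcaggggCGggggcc

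The printed KLK3 sequence holds 1 CpG, that of KLK2 holds 2 and that of KLK6 holds 12. Over all 300 bases, the 6 promoters of KLK15, KLK3, KLK2 and KLK4 held 1 to 4 CpGs, with a median of 2.5. The 16 promoters of the 9 genes from KLK5 onward held 2 to 23, with a median of 10. Across the 35116 promoters of the RefSeq table the median was 14 (quartiles 4 and 28), and 89.0% held at least the 2 CpGs of KLK3. Both ends thus lay below the genome's median, and the prostate-expressed end lay at or below its lower quartile at every start. At the CpG-richer end KLK13 reached 23 and KLK7 between 13 and 16, whereas KLK14 at the far border had 2 to 4. The promoters of KLK3 and KLK2 are near copies, sharing an identical run of 80 bases (bases 97 to 176 of KLK3). How reads that fit both copies were handled is not given in the sources used here. AGAACA, the core of androgen receptor binding sites, was searched for on both strands. Its exact form occurred once among the 22 family promoters, at base 81 of KLK3. Where KLK3 reads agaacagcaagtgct, KLK2 reads ggaacagcaagtgct, which differs by 1 base and was not counted. A missing exact match therefore does not show that a promoter lacks a binding site. The exact form was present in 14.8% of all promoters of this length.

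**Figure D1:**
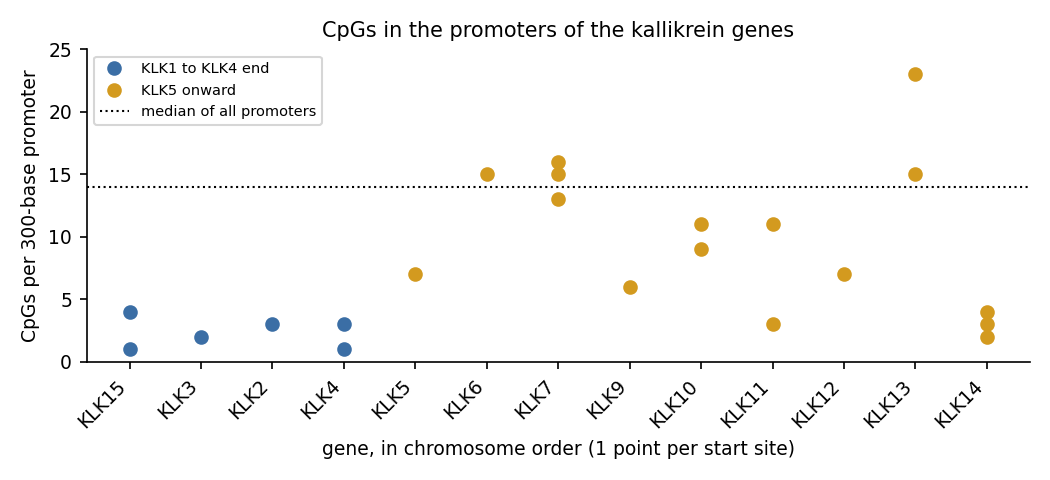
CpGs in each 300-base RefSeq promoter (vertical axis) of the kallikrein genes in chromosome order (horizontal axis), 1 point per start site, with the median of all promoters dotted at 14. The 6 points of the KLK1 to KLK4 end lie at 4 or below, and those from KLK5 onward spread from 2 to 23.

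Methylated regions were crowded at the prostate-expressed end and sparse from KLK5 onward, in both genotypes. In control cells the prostate-expressed end held 32 peaks in 100 kb (95% exact Poisson interval 21.9 to 45.2), and the longer end from KLK5 onward held 7 (2.81 to 14.4). In knockout cells the counts were 31 (21.1 to 44.0) and 5 (1.62 to 11.7). Density was 32.0 against 4.67 peaks per 100 kb in the control, a ratio of 6.86 (exact interval 2.97 to 18.4). In the knockout it was 31.0 against 3.33, a ratio of 9.30 (3.59 to 30.6). Peaks covered 16.8% of the prostate-expressed end and 2.49% of the other in the control, and 17.5% and 1.82% in the knockout. The intervals treat peaks as independent counts within a library. They leave out the uneven spacing of peaks along the chromosome and any spread between replicates, so they may be too narrow. A further 6 control and 5 knockout peaks lay in the 20 kb between the ends, and they continued the dense stretch.

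**Figure D2:**
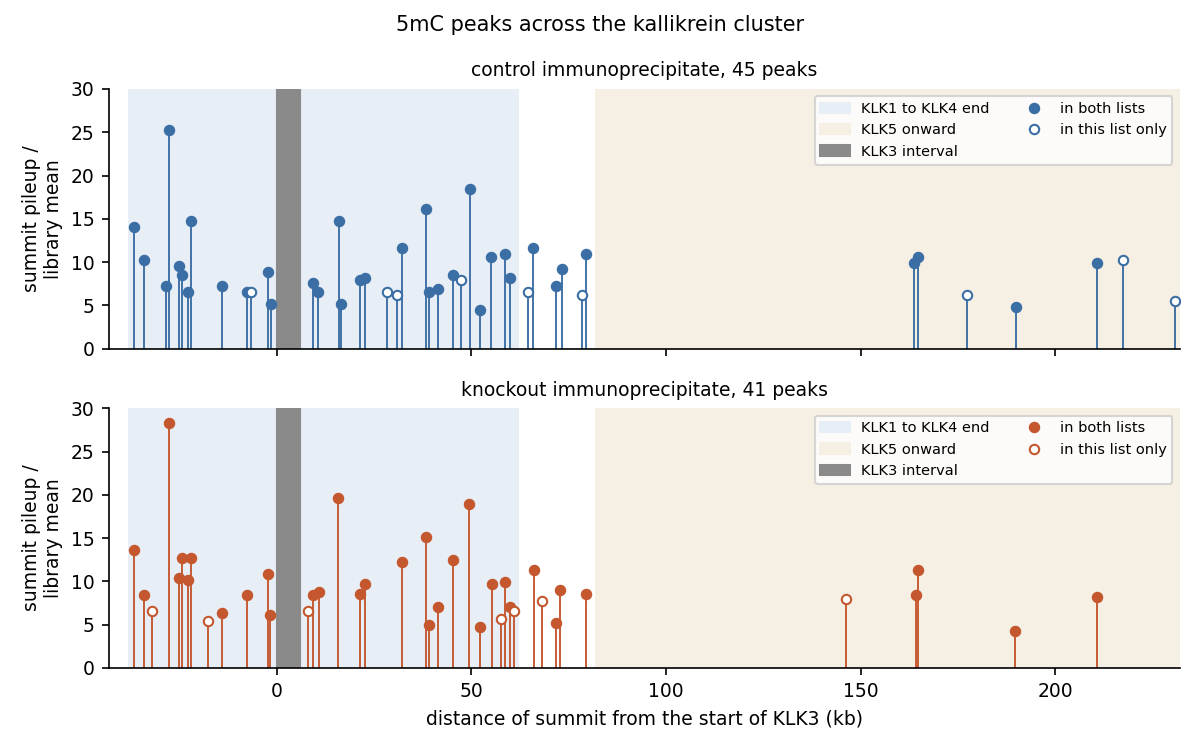
Each line is a 5mC peak, placed by the distance of its summit from the start of KLK3 in kb, with its height the summit pileup divided by the library's mean pileup. Filled points overlapped a peak of the other list. Peaks are dense on both sides of KLK3, none lies in its interval, and few lie from KLK5 onward.

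Beside windows of the chromosome that held a peak, the prostate-expressed end was ordinary and the other end was thin. Chromosome 19 was cut into windows of 100 kb, of which 513 held a peak in either list. The 79 windows empty in both were left out. The median window held 18 control peaks (quartiles 6 and 37) and 21 knockout peaks (7 and 39), so the 32 and 31 of the prostate-expressed end fell within the quartiles. Among 351 windows of 150 kb the medians were 28 control peaks (quartiles 8.5 and 52) and 33 knockout peaks (11 and 54). The 7 and 5 peaks from KLK5 onward were below both lower quartiles of these windows. Another 44 windows, empty in both lists, were left out. With them counted, neither number would be below its lower quartile, and the shares that follow would be higher. As few or fewer were held by 23.1% of windows in the control and 16.0% in the knockout, so windows as thin as this were not rare on the chromosome. The 100 kb before the cluster held 13 control and 16 knockout peaks, and the 100 kb after it 11 and 10.

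**Figure D3:**
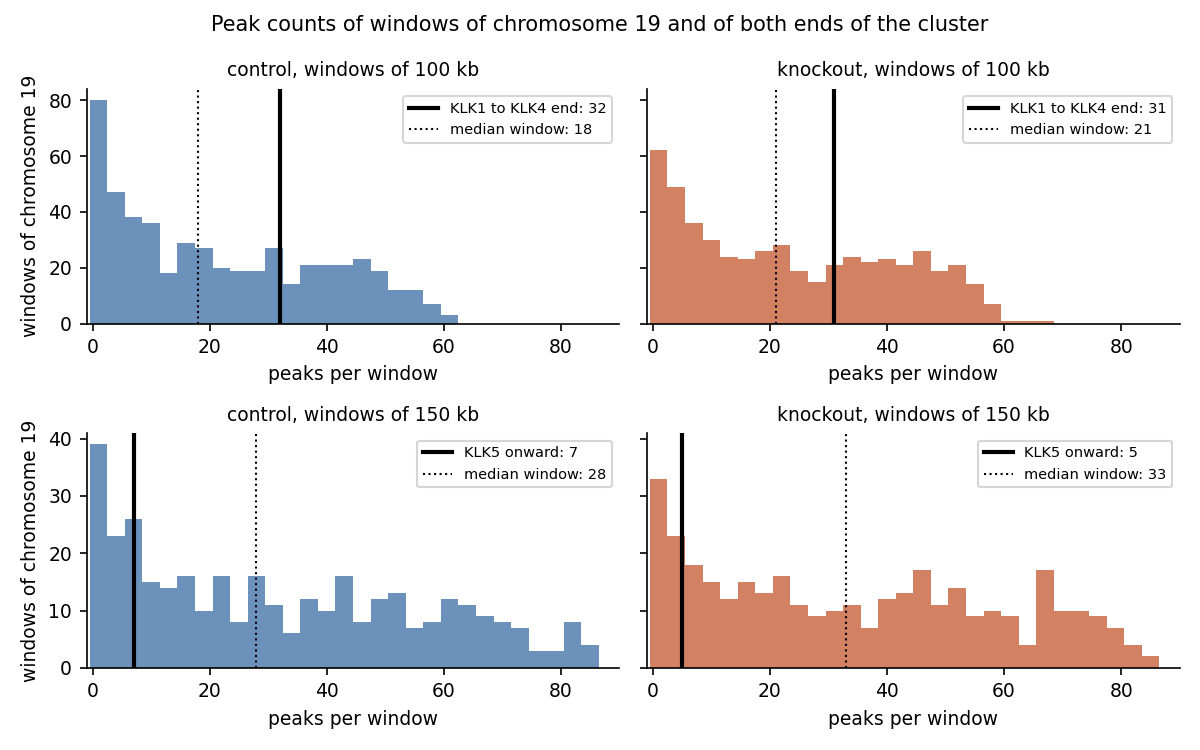
Histograms of the number of peaks per window of chromosome 19, for 100 kb and 150 kb windows in each list. Windows empty in both lists are left out, and the vertical axis gives the number of windows. The solid line marks the end of the cluster of that length (32 and 31 peaks above, 7 and 5 below) and the dotted line the median window.

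The density changed over a short distance just before the start of the KLK5 end. The last peak of the dense stretch ended at 51437831 in control and 51437826 in knockout cells. The next control peak began at 51521517, after 83.7 kb without a peak. In the knockout the next began at 51504064, after 66.2 kb. Gaps between peaks of chromosome 19 had a median of 1.05 kb in control cells and 0.969 kb in knockout cells. These stretches ranked 79 of 11164 and 104 of 12087 by length, with unsequenced and centromeric gaps counted. In bins of 25 kb the first 5 bins held 5 to 9 control summits and 5 to 9 knockout summits. The next 3 held 0 control summits, and 0, 0 and 1 knockout summits. A stretch without a listed peak is one where nothing passed the caller, which does not show that its CpGs were unmethylated.

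**Figure D4:**
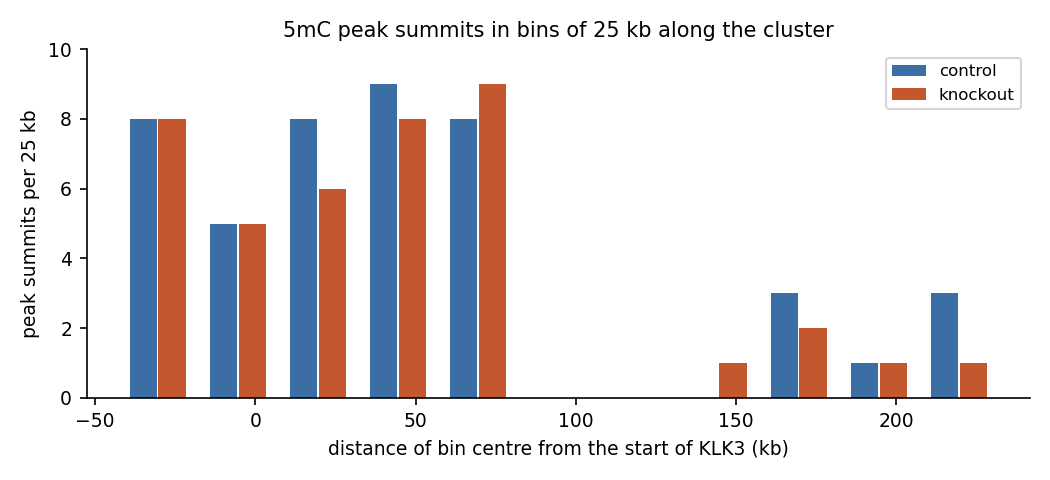
Number of peak summits in bins of 25 kb (vertical axis) against the distance of the bin's centre from the start of KLK3 in kb (horizontal axis), control beside knockout. The first 5 bins hold 5 to 9 summits in each list, and the 3 bins after them hold none except 1 knockout summit.

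KLK3 lay in the longest peak-free stretch of the prostate-expressed end. No peak of either list overlapped its interval. A count of 0 in these 6 kb has an exact Poisson upper limit of 3.69 peaks, or 61.5 per 100 kb. That limit lies above the 32.0 and 31.0 per 100 kb of the whole prostate-expressed end. In the control the flanking peaks were chr19:51356401-51356700, where the pileup was 15 and the fold 3.62, and chr19:51367132-51367439, where they were 22 and 4.88. They left 10.4 kb between them. In the knockout the flanking peaks were chr19:51356257-51356604, where the pileup was 27 and the fold 4.20, and chr19:51365885-51366566, where they were 29 and 5.04, and left 9.28 kb. Pileup is the number of fragments over the summit, and fold is the authors' enrichment over local background. Over all gaps of that end the median was 1.65 kb in control cells and 1.92 kb in knockout cells. Gaps of this length were not rare on chromosome 19, where they ranked 703 of 11164 in control and 750 of 12087 in knockout cells. Both were shorter than the 95th percentile of gaps, 13.0 and 11.7 kb. The promoter printed for KLK3 falls inside this stretch, since the nearest peak before the gene ended 1.30 kb ahead of the interval in control cells and 1.40 kb ahead in knockout cells. The control list went down to a pileup of 12 on chromosome 19 and the knockout list to 14, so weaker methylation would not be listed. The printed KLK3 promoter holds 1 CpG, and MeDIP enriches fragments with several methylated CpGs. Even full methylation there could go unlisted, so the gap does not show low methylation at KLK3.

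The highest pileup of the cluster lay on the KLK1 side of KLK3. There the knockout had 1 peak at chr19:51329464-51331118 whose pileup was 125 and fold 12.1, and the control had 2 peaks with pileups of 74 and 21 over the same ground. Divided by the library's mean pileup, the control summit reached 25.3 and the knockout summit 28.3. The fold of that control peak was 7.87, since its local background was 2.92 times the library mean. Only 0.499% of control peaks and 0.413% of knockout peaks in the genome had as high a pileup. On the far side of KLK3, toward KLK2, the knockout peak chr19:51373620-51374762 had a pileup of 87 and covered control peaks of 43 and 15. Closer to the KLK4 border the control peak chr19:51406842-51408097 reached a pileup of 54, at the highest fold of the control cluster, 10.8. Its knockout counterpart had 84, at a fold of 8.97. Next in control pileup among the paired peaks came chr19:51396266-51396666, with 47 in control cells and 67 in knockout cells, and chr19:51335802-51336298, with 43 and 56. By pileup the same place thus ranked first in both genotypes, while by fold it did so in the knockout only.

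The peaks from KLK5 onward were few and of middling height. In the control their pileups ran from 14 to 31 with a median of 29, against 13 to 74 and a median of 23.5 at the prostate-expressed end. In the knockout they ran from 19 to 50 with a median of 36, against 21 to 125 and a median of 39. A neighbouring pair of peaks, chr19:51521517-51522420 and chr19:51522538-51522912, had control pileups of 29 and 31 and knockout pileups of 37 and 50. The peak chr19:51568145-51568971 had 29 and 36, and chr19:51547743-51548057 had 14 and 19. The highest pileups of this end, 31 in the control and 50 in the knockout, were exceeded elsewhere in the cluster, where peaks were also more numerous. Median fold in the control was 4.01 from KLK5 onward and 4.95 at the prostate-expressed end, and in the knockout it was 5.38 and 5.00. Median local background, relative to the library mean, was 1.33 at the prostate-expressed end and 1.16 from KLK5 onward in the control, and 1.58 and 1.34 in the knockout. Its part in the number of peaks called was not tested.

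Loss of PKCλ/ι was studied in this series beside serine and one-carbon metabolism, which supplies methyl groups, so the levels of each region were set side by side in the 2 genotypes. The mean pileup of the knockout library was 1.51 times that of the control, and pileups were divided by these means before they were compared. In all, 32 regions overlapped exactly 1 peak of the other list. Their median log2 ratio, knockout over control, was 0.00 (order-statistic interval -0.16 to 0.13), with quartiles of -0.19 and 0.17. The median was 0.06 over 8145 pairs of chromosome 19 and 0.04 over 206556 pairs of the genome. A change that moves peaks and background alike across the genome is removed by this scaling. A shift of peaks against background need not be. Counting error alone gave every one of the 32 pairs an interval that included 0, and the median width of these intervals was 1.498 on the log2 scale.

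Few pairs moved far. After scaling, 1 of the 32 pairs was at least 1.5-fold higher in the knockout, where 5.14% of pairs in the genome were, and 0 were at least 1.5-fold lower, where 3.60% were. That pair, chr19:51334964-51335418 on the KLK1 side of KLK3, went from a pileup of 19 in control to 45 in knockout cells, a log2 ratio of 0.65 (-0.16 to 1.502). Its neighbour chr19:51333520-51333871 had 25 and 56, or 0.57 (-0.14 to 1.31). At the same end the lowest ratios were -0.39 (-1.34 to 0.58) at chr19:51396928-51397259, with 19 and 22, and -0.30 (-1.03 to 0.45) at chr19:51323691-51324582, with 30 and 37. High and low ratios therefore lay within the same 100 kb. For the strong regions that matched 2 control peaks, the highest pileups gave 0.16 (-0.27 to 0.59) on the KLK1 side of KLK3 and 0.42 (-0.12 to 0.98) toward KLK2.

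By place in the cluster, the log2 ratio was above 0 in 15 of 24 pairs of the prostate-expressed end, 0 of 4 between the ends and 1 of 4 from KLK5 onward. The first is 62.5%, near the 58.6% of pairs above 0 on chromosome 19 and the 54.6% in the genome. For the prostate-expressed end the median log2 ratio of 24 pairs was 0.08 (-0.13 to 0.25), and it was -0.20 for the 4 pairs from KLK5 onward, which ranged from -0.29 to 0.09. The 4 pairs between the ends ranged from -0.47 to -0.03. All 8 of these later pairs lay inside the range of the prostate-expressed end, -0.39 to 0.65, except the lowest, chr19:51429465-51429964, with pileups of 21 and 23. The difference of -0.28 between the ends rests on 4 pairs and was not tested. The background at the same pairs had a median log2 ratio of 0.21 at the prostate-expressed end and 0.06 from KLK5 onward. Measured by fold enrichment, which divides by that background, the medians were -0.05 and -0.18. With pairs strong in both lists the median of the prostate-expressed end was -0.07, so the sign of that median depended on the measure and on the pairs used.

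**Figure D5:**
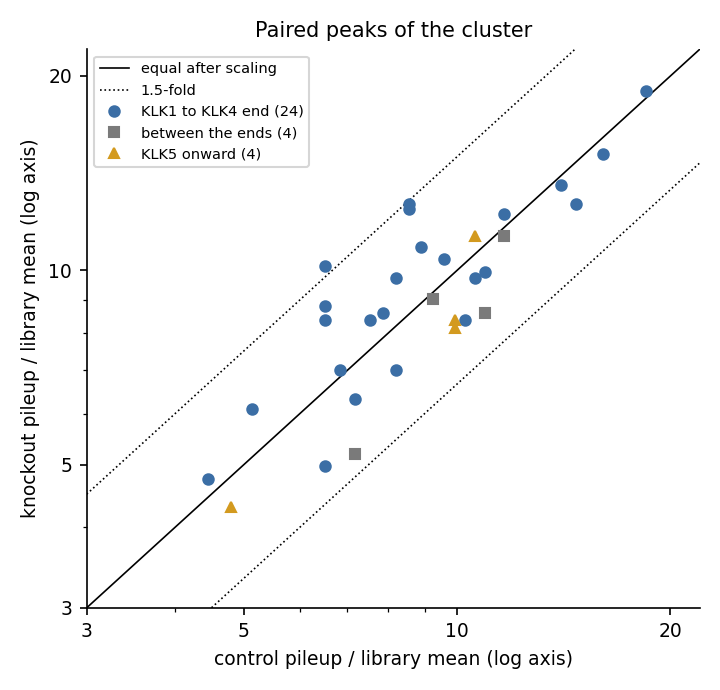
Summit pileup over library mean in the control (horizontal, log axis) and the knockout (vertical, log axis) for the 32 paired peaks, by place in the cluster. The solid line marks equal values and the dotted lines 1.5-fold, which 1 pair passes.

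Regions found in a single genotype numbered 9 for control and 7 for knockout cells. Without a knockout peak were 9 of the 45 control peaks, 20.0% (exact Clopper-Pearson interval 9.58 to 34.6), where 12.1% of control peaks in the genome and 8.71% on chromosome 19 had none. Without a control peak were 7 of the 41 knockout peaks, 17.1% (7.15 to 32.1), where 23.9% in the genome and 19.8% on chromosome 19 had none. Both intervals include the genome's share. The control's lies above its share on chromosome 19, and the knockout's includes that of chromosome 19. The cluster had 0.911 times as many peaks in the knockout as in the control (exact interval 0.582 to 1.42), and the genome 1.13 times. Counting only strong peaks, those with a −log10 q of at least 10, the order turned, from 21 control peaks to 31 knockout peaks, or 1.48 times (0.822 to 2.70). The genome's ratio of strong peaks was also 1.48, and the mean pileup of the knockout library was 1.51 times that of the control. Its part in these counts was not tested. Among these strong peaks there were 2 of 21 control peaks without a counterpart, where 3.24% in the genome had none. In the knockout there were 4 of 31, where 14.9% had none. At the end from KLK5 onward 3 of 7 control peaks, 42.9% (9.90 to 81.6), and 1 of 5 knockout peaks, 20.0% (0.505 to 71.6), had no counterpart. At the prostate-expressed end 4 of 32 control and 5 of 31 knockout peaks had none. The wide intervals from KLK5 onward include the genome's 12.1% and 23.9%, though the control's lies above the 8.71% of chromosome 19.

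In each genotype the peak of highest fold at the sparse end was missing from the other list, although a shared peak there had a higher pileup (31 in the control, 50 in the knockout). In the control this was chr19:51575096-51575724, with a pileup of 30 (exact Poisson interval 20.2 to 42.8), a fold of 7.78 and a −log10 q of 18.1. The nearest knockout peak was 6.16 kb away. An equal level would give a pileup of 45.4 at the knockout's depth, and the knockout list holds peaks down to 14 at a like background. In the knockout it was chr19:51504064-51504432, with a pileup of 35 (24.4 to 48.7), a fold of 6.13 and a −log10 q of 17.0. The nearest control peak was 17.1 kb away. An equal level would give 23.1 at the control's depth, where peaks down to 10 were listed at a like background. This is the peak that shortened the long empty stretch in the knockout. Every list-only peak of the cluster, weak ones included, had an expected pileup above the lowest one listed. The comparison therefore does not set these peaks apart, and both were picked for a high fold in 1 list. Why each is missing from the other list was not tested.

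At the dense end the strong peaks without a counterpart lay close to peaks of the other list. Gaps of that end between peaks of the same list had a median of 1.65 kb in control cells and 1.92 kb in knockout cells. The part of peak density in these distances was not tested. The control had chr19:51405091-51405503, at a pileup of 23 and fold of 6.12, and the nearest knockout peak was 1.44 kb away. The knockout had chr19:51365885-51366566, the first peak after KLK3, with a pileup of 29 and a control peak 0.566 kb away. It also had chr19:51418911-51419249, at the KLK4 border, with a pileup of 29 and a control peak 0.814 kb away. Between the ends chr19:51425953-51426400 had a pileup of 34 and a control peak 1.77 kb away. The other 10 peaks without a counterpart were weak, with control pileups of 16 to 19 and knockout pileups of 24 to 29.

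The borders of the cluster did not cut through a peak. On the KLK1 side the peak just outside ended at 51314097 in control and 51314260 in knockout cells, with pileups of 20 and 41, and the first inside began at 51321242 and 51321188, with 41 and 60. On the far side the last control peak inside, chr19:51588596-51588901, had a pileup of 16, and the next began at 51592909 with 17. The last knockout peak inside was chr19:51568192-51568939, with 36, and the next began at 51592969 with 32.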

How the data were processed

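MeDIP-seq peak lists were deposited for the 2 immunoprecipitates, 1 library per genotype, and each list was assigned to its sample from WT or KO and 5mC in its name. BWA, FastQC, MACS2 and hg19 are named in the submitters' processing notes, while their roles and settings are not given in the sources used here. Per the file headers, each peak has a position, a length, the pileup signal at the summit, a fold enrichment (a ratio) and −log10 p and q values. The authors' pileups are whole numbers not scaled between libraries.

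The local background was recomputed as pileup plus 1, over fold, minus 1, and its lowest value (2.92 in the control, 4.42 in the knockout) was taken as the library's mean pileup. With it the Poisson tail matched the deposited −log10 p within 0.000573. Read totals are unknown, so depth here means this mean pileup. Peaks sharing at least 1 bp were shared, and pairs overlapped exactly 1 peak each way. Intervals are at the 95% level. Those of pileups and of single pairs cover counting error only. Those of peak counts, shares and densities treat peaks as independent, and those of medians cover the spread among pairs. None covers the spread between replicates. Windows came from the definition of the cluster. Named regions were every peak next to or in KLK3, at each end the pairs of highest pileup and of highest and lowest ratio, pairs past 1.5-fold, strong list-only peaks and border peaks. The regions around 2 merged peaks and the empty stretch were named after their values were seen. The members and lists were chosen with earlier results of these data known. Overlap and pairing were tested on simulated intervals. Python 3.11.15 and scipy 1.17.1 were used. Counts per gene were not made, since no hg19 annotation was used here.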

Additional observations from a re-analysis of the deposited data

How the results depend on the processing

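Of 72 alternatives over 14 results, 56 stayed within 1.5 times the count, or within the interval or range of the ratio or log2 value, and 16 did not. Some of the 56 could not move, such as control counts when only the knockout list was shortened. No log2 value was called, and medians near 0 changed sign. That of the cluster, 0.00, was -0.03 centred on the genome, -0.06 centred on chromosome 19, -0.09 with pairs strong in both lists and -0.05 by fold. That of the prostate-expressed end, 0.08, was -0.07 with strong pairs and -0.05 by fold. The difference between the ends stayed negative, from -0.34 to -0.13. Centring cannot change this difference, and the other alternatives reused 2 to 4 of the same pairs from KLK5 onward. The density from KLK5 onward over that of the prostate-expressed end (0.146 in the control, 0.108 in the knockout) ran from 0.125 to 0.154 and from 0.0952 to 0.125 over its alternatives. With peaks of −log10 q of at least 10, control peaks fell by construction to 21 in the cluster, 15 at the prostate-expressed end and 3 from KLK5 onward, with 2 control-only and 4 knockout-only, while the knockout kept 31, 23 and 4. With a fold of at least 5 the control kept 23, 16 and 3 peaks and the knockout 22, 16 and 3, with 3 control-only and 2 knockout-only. With 50% reciprocal overlap 14 control peaks had no counterpart, and where the other list had to be empty within 1000 bp there were 5 control-only and 4 knockout-only. Shortening the knockout list to the control's number of peaks left 37 knockout peaks and 12 control-only ones. Scaling the knockout to the control's depth left all 41, though only summits were scaled. The border moved to 51.44 Mb and the control-only count at scaled depth were chosen after seeing the data. No paired analysis was possible because the labels give every group 1 library.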
